A study of Mus musculus with 12 samples.

Results

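Tbx1 and 4 other T-box transcription factors of the embryonic mesoderm, Tbx4, Tbx15, Tbx18 and Tbx22, were followed across embryos with 2, 1 or 0 copies of the whirligig allele of Chd7. The members were chosen by name, with earlier results of these data known. All probes whose transcript accession maps to one of these symbols were taken, which gave 6 probes for 5 genes among 39429 probes and 19751 named genes. Tbx22 had 2 probes and the other genes 1 each.

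The series profiled whole female mouse embryos at embryonic day 9.5, 1 array each, on a 1-colour Agilent platform. It asked what loss of Chd7, a chromatin remodelling enzyme whose human gene is mutated in CHARGE syndrome, does to gene expression. The groups were 4 homozygous embryos (Chd7Whi/Whi, called knockouts in the labels), 4 heterozygous embryos (Chd7Whi/+) and 4 wild-type embryos (Chd7+/+). All came from matings between heterozygotes on a mixed C3HeB/FeJ background, so every embryo developed in a heterozygous dam, and yolk sacs had been dissected away. The labels call the embryos of a genotype biological replicates. Replicate numbers follow accession order and only name an array.

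T-box factors bind DNA through a shared domain that recognises the half-site AGGTGTGA, and many of them set up regions of mesoderm. Tbx1 acts in pharyngeal endoderm and mesoderm and in the second heart field, it is a major gene of the human 22q11.2 deletion syndrome, and in mice it interacts genetically with Chd7 in the pharyngeal arch arteries. Tbx18 marks the anterior part of each somite, the proepicardium and the sinus venosus. Tbx4 marks the allantois and the hindlimb field, Tbx15 acts in limb and head mesenchyme, and Tbx22, an X-linked gene mutated in human cleft palate, acts in palate and facial mesenchyme.

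Promoter windows are shown because the members differ in the CpG content of the sequence around their starts. RefSeq windows of assembly GRCm38.p6, from 250 bases before to 50 bases after an annotated start, were held for 4 of the 5 genes and 7 starts. One window each of Tbx1, Tbx18 and Tbx22 follows, with every CpG in capitals. The Tbx1 window lies at chr16:18588850-18589149 (minus strand), that of Tbx18 at chr9:87731211-87731510 (minus strand) and that of Tbx22 at chrX:107667714-107668013 (plus strand).
Tbx1: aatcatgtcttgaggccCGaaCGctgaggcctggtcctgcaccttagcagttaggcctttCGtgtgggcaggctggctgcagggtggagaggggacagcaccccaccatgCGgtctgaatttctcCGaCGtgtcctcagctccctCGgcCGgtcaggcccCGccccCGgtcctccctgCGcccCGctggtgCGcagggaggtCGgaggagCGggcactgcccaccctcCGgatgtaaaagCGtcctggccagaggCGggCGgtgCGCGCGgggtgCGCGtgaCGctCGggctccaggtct
Tbx18: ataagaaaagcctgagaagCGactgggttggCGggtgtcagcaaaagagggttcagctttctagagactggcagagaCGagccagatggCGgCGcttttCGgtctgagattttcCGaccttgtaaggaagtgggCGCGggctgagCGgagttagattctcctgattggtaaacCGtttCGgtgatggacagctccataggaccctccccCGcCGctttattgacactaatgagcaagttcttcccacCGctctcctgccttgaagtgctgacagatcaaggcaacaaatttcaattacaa
Tbx22: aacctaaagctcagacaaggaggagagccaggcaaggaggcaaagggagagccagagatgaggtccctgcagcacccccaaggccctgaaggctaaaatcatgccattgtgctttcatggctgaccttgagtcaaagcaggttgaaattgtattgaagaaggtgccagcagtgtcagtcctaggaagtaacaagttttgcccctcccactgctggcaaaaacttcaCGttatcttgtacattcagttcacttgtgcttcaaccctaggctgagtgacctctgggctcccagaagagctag
The Tbx1 window held 26 CpGs and 69% G and C, and the Tbx18 window 15 CpGs and 51.7%. The Tbx22 window held 1 CpG. A second Tbx1 start had 16 CpGs, the Tbx4 window had 8, and the other Tbx22 windows had 2 and 1, where the median of all 32851 windows was 7. The half-site AGGTGTGA, searched on both strands, was in none of the 7 member windows and in 1.28% of all windows. Its core GGTGTG, which every match of the half-site also holds, was likewise in none of the 7 and in 19.0% of all windows.

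The values below are log2 signals scaled so that 0 is each array's own 75th percentile, which lay between a processed signal of 1095 and 1721. The share of probes well above background was 69.1% to 75.7%, no spot was saturated, and each of 3 slides carried 4 arrays and every genotype. Slide position 1 was used for 3 wild-type arrays and for no mutant. Heterozygous replicate 1 stood apart from the rest. On that array the mean of 7 heart muscle markers differed from the wild-type mean by -4.91 on the log2 scale, against -0.33 to 0.45 on the other 11 arrays, while 5 presomitic and tail bud markers were 1.43 above it (-0.41 to 0.28 on the others) and 8 posterior Hox genes 2.37 above it (-1.54 to 0.52 on the others). All 7 heart markers remained well above background there, with a summed linear level of 8.71 against 131 to 214 elsewhere. Of 9 markers of yolk sac and visceral endoderm, 9 were higher by group mean in homozygotes than in wild type (median log2 fold change 0.57) and 9 in heterozygotes (1.01, and 1.32 without replicate 1), with 0 past the adjusted threshold of 0.05 in either comparison. Single arrays overlapped, with mean differences from the wild-type mean of -1.66 to 3.08 in homozygotes, 0.32 to 1.63 in heterozygotes and -1.17 to 1.65 in wild type. The summed linear level of these markers was 4.53 to 79.2 in homozygotes, 14.2 to 32.6 in heterozygotes and 6.32 to 33.8 in wild type, and their part in the values below was not tested.

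Tbx1 did not differ detectably between the 3 genotypes. Its probe (A_55_P2051716) was well above background on 12 of 12 arrays. It read 1.84, 1.51, 2.13 and 1.56 in homozygotes, 1.82, 1.77, 1.52 and 1.82 in heterozygotes, and 1.49, 1.65, 1.93 and 1.54 in wild type. The 3 groups overlapped, and the highest and the second highest arrays were a homozygote and a wild type. Means were 1.76 ± 0.29, 1.73 ± 0.15 and 1.65 ± 0.20 (SD, n = 4 each) in homozygotes, heterozygotes and wild type. The log2 fold change of homozygotes over wild type was 0.11 ± 0.15 (SE, limma adjusted p = 0.737), with a 95% confidence interval of -0.22 to 0.44. That of heterozygotes over wild type was 0.08 ± 0.15, with an interval of -0.25 to 0.41 (adjusted p = 0.792), and that of homozygotes over heterozygotes 0.03 ± 0.15 (-0.30 to 0.35). Differences within these intervals remain possible with 4 embryos a group, and the intervals are not limits of detection. In whole embryos, fewer cells that express a gene and less RNA per cell cannot be told apart, here and for each gene below. Within the 3 slides the homozygous minus wild-type difference was 0.35, -0.28 and 0.31, so it had no constant sign, and without homozygous replicate 3 it was -0.01.

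**Figure D1:**
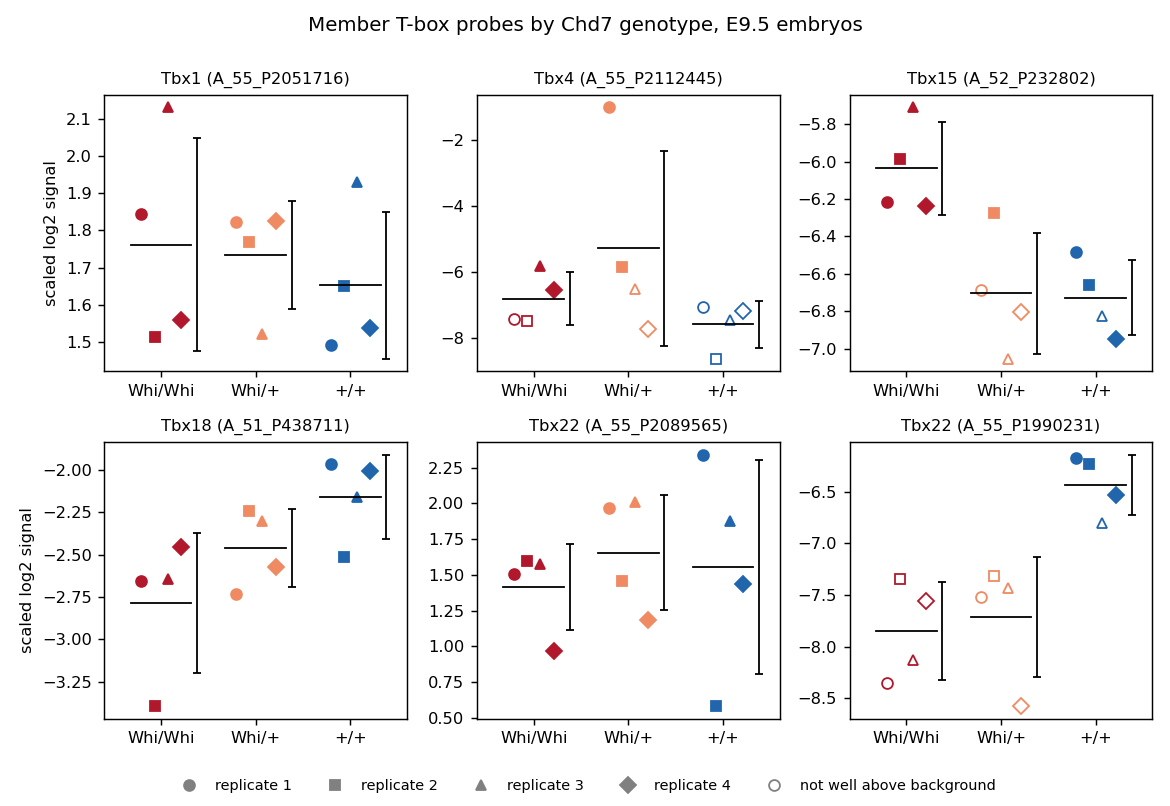
Scaled log2 signal (0 is each array's 75th percentile; axes differ between panels) of the 6 member probes in 4 Chd7Whi/Whi, 4 Chd7Whi/+ and 4 +/+ embryos; each symbol is 1 array, the horizontal line is the mean, the bar is ± 1 SD, and open symbols were not well above background. Tbx1 overlaps across genotypes, Tbx15 is higher in all 4 homozygotes near background, Tbx18 has means of -2.79, -2.46 and -2.16, and Tbx4 is carried by heterozygous replicate 1.

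Tbx18 was the lowest in homozygotes by mean, with heterozygotes between, and its difference did not pass the threshold. The probe (A_51_P438711) was well above background on 12 of 12 arrays. It read -2.65, -3.39, -2.64 and -2.46 in homozygotes, -2.73, -2.24, -2.30 and -2.58 in heterozygotes, and -1.96, -2.51, -2.16 and -2.0 in wild type. Of the 4 homozygotes, 3 lay below every wild-type array, and wild-type replicate 2 lay below homozygous replicate 4. The log2 fold change of homozygotes over wild type was -0.63 ± 0.20 (SE, 95% interval -1.07 to -0.18, limma unadjusted p = 0.00944, adjusted p = 0.168). It was -0.30 ± 0.20 for heterozygotes over wild type (adjusted p = 0.454) and -0.32 ± 0.20 for homozygotes over heterozygotes (adjusted p = 0.905). Within the 3 slides the homozygous minus wild-type difference was -0.69, -1.06 and -0.54, lower in homozygotes on each. The place of heterozygotes between the other groups did not hold on every slide. Heterozygous minus wild type was -0.52, 0.03 and -0.57, and homozygous minus heterozygous -0.17, -1.09 and 0.03. Homozygous replicate 2 was the lowest array, and without it the log2 fold change was -0.42 (adjusted p = 0.349). Over the alternatives run it stayed between -0.91 and -0.42 with adjusted p of at least 0.113.

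Tbx15 was higher in all 4 homozygotes than in any other embryo, at a signal close to background. The probe (A_52_P232802) read -6.22, -5.98, -5.71 and -6.24 in homozygotes, -6.69, -6.27, -7.05 and -6.81 in heterozygotes, and -6.48, -6.66, -6.83 and -6.95 in wild type. It was well above background on 4 of 4 homozygous, 1 of 4 heterozygous and 3 of 4 wild-type arrays, so it was tested only because the homozygotes met the filter. The detection floor, taken as the lowest signal of any probe that was well above background, lay between -7.21 and -6.43 on the 12 arrays, a range that holds the Tbx15 readings of 4 of 4 wild types and 3 of 4 heterozygotes. The log2 fold change of homozygotes over wild type was 0.69 ± 0.18 (SE, 95% interval 0.31 to 1.08, limma unadjusted p = 0.00203, adjusted p = 0.0853), and over heterozygotes 0.67 ± 0.18 (adjusted p = 0.477). Heterozygotes and wild type differed by 0.02 ± 0.18. Neither homozygous comparison passed the threshold. The direction depended on the background correction, since with normexp the homozygous over wild-type value was -0.15 (adjusted p = 0.851). It passed with array weights (0.71, adjusted p = 0.0492) and without heterozygous replicate 2 (adjusted p = 0.0459), and missed the threshold with every other array left out.

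The probes of Tbx22 disagreed. The bright one (A_55_P2089565) was well above background on all arrays and read 1.51, 1.60, 1.58 and 0.97 in homozygotes, 1.97, 1.46, 2.01 and 1.18 in heterozygotes, and 2.34, 0.58, 1.87 and 1.44 in wild type. Wild type had both the highest and the lowest array of the 12, and the groups overlapped. The log2 fold change of homozygotes over wild type was -0.15 ± 0.33 (SE, 95% interval -0.86 to 0.57, limma adjusted p = 0.853), and of heterozygotes over wild type 0.10 ± 0.33 (adjusted p = 0.89). The dim probe (A_55_P1990231), assigned to the same transcript accession, read -8.35, -7.34, -8.13 and -7.56 in homozygotes, -7.52, -7.31, -7.43 and -8.58 in heterozygotes, and -6.17, -6.23, -6.80 and -6.53 in wild type. It was well above background on 3 of 4 wild-type arrays and on none of the homozygous or heterozygous ones, and no array of either mutant group reached the lowest wild-type reading. These 3 were the wild-type arrays at slide position 1, which held no mutant, and wild-type replicate 3 was at another position. Genotype and slide position therefore cannot be told apart in the detection of this probe. Because the mutant readings are below background, only an approximate bound can be given. Each mutant array was set at its detection floor (the lowest signal of any probe well above background) or its own signal where that was higher. The dim Tbx22 probe was then 1.31-fold lower in homozygotes and 1.13-fold lower in heterozygotes than the wild-type mean. These are not strict bounds, since wild-type replicate 3 entered at a reading not well above background. It did not meet the filter, and in a fit without one its adjusted p was 0.0859 for homozygotes and 0.346 for heterozygotes against wild type. Within the 3 slides the homozygous minus wild-type difference of this probe was -2.18, -0.83 and -1.32, and with normexp the overall difference was -0.49 against -1.41. Across the 12 arrays the 2 probes had a Pearson r of 0.10, given as a description of arrays that share slides and scaling. The position of the 2 probes on the transcript is not given in the sources used here, so which of them follows Tbx22 RNA more closely cannot be stated.

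Tbx4 was detected clearly on 1 array, heterozygous replicate 1. Its probe (A_55_P2112445) read -7.41, -7.49, -5.80 and -6.53 in homozygotes, -1.0, -5.86, -6.53 and -7.72 in heterozygotes, and -7.06, -8.62, -7.47 and -7.19 in wild type. It was well above background in homozygous replicates 3 and 4, in heterozygous replicates 1 and 2, and in no wild-type embryo, and so was not tested. Set against the wild-type floor, taken as for Tbx22, the mean was 1.09-fold higher in homozygotes and 3.16-fold higher in heterozygotes. Neither is a strict lower bound, since homozygous replicates 1 and 2 and heterozygous replicates 3 and 4 entered at readings not well above background. Single arrays decided both values. The heterozygous value was 1.18-fold without heterozygous replicate 1. Without homozygous replicate 3 the homozygous mean (-7.15) lay below the wild-type floor (-6.94). The heterozygous mean minus the wild-type mean was 2.31 with replicate 1 and 0.88 without it. With normexp the homozygous minus wild-type difference turned to -0.25, against 0.78.

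Of the 4 members tested, 0 passed the adjusted threshold of 0.05 in each of the 3 comparisons with limma. Between homozygotes and wild type 1.35% of the 22563 genes tested passed it, between heterozygotes and wild type 0.00886%, and between homozygotes and heterozygotes 0.0133%. Tbx15 met the filter only through the group in which it was high, so it is left out of the counts that follow. Of the other 3, Tbx1, Tbx18 and Tbx22, Tbx18 alone had an unadjusted p under 0.05 between homozygotes and wild type, where 17% of all genes did. For each of these 3 the arrays overlapped in all comparisons, where 14.1% of all genes did not overlap between homozygotes and wild type, 6.67% between heterozygotes and wild type, and 2.98% between homozygotes and heterozygotes.

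**Figure D2:**
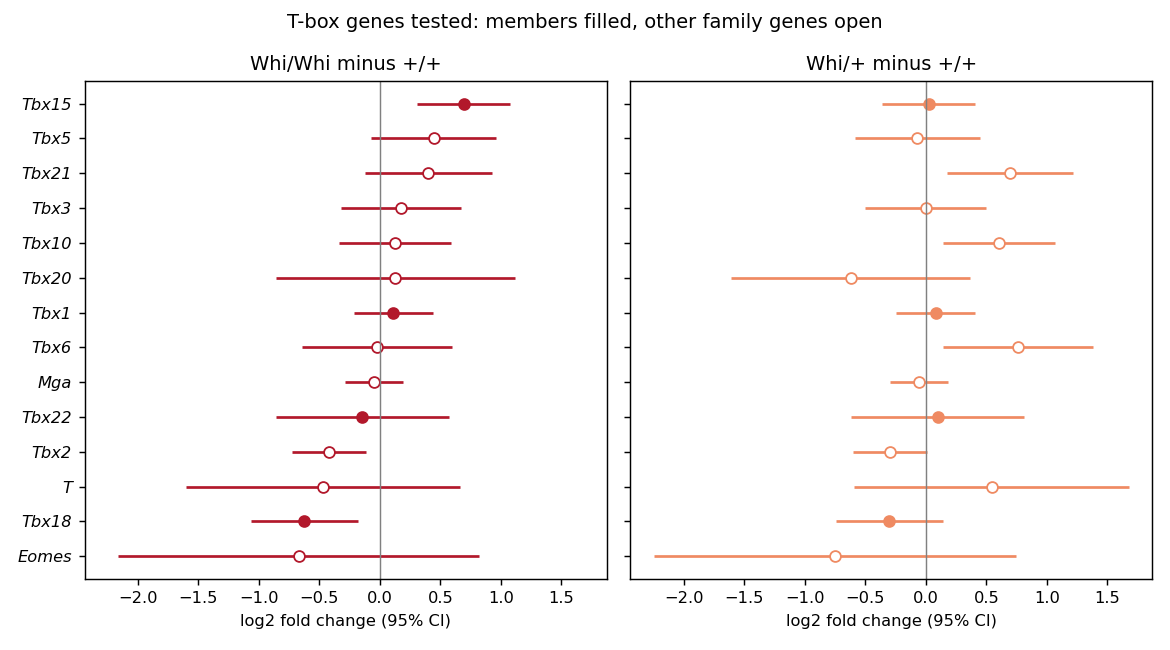
Log2 fold change (points) with 95% confidence interval (lines) of the 14 T-box genes tested, Chd7Whi/Whi minus +/+ on the left and Chd7Whi/+ minus +/+ on the right, both on 1 scale, n = 4 arrays a group; filled points are the members and open points other family genes. Among members the homozygous intervals of Tbx15 (0.31 to 1.08) and Tbx18 (-1.07 to -0.18) leave out 0 before adjustment for 22563 genes. Of all genes, 17% had an unadjusted limma p under 0.05 in that comparison. Tbx15 was tested only because the homozygotes, the group in which it was high, met the filter. No gene shown passed the adjusted threshold.

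The rest of the T-box family gave the same count. Of 12 other family genes on the array 10 were tested and 0 passed in any of the 3 comparisons. Tbx19 was well above background on 0 of 12 arrays, and Tbr1 did not meet the filter. Tbx2, the neighbour of Tbx4 on the chromosome and a repressor in heart and limb, read -1.65, -1.67, -1.76 and -2.02 in homozygotes, -1.77, -1.63, -1.64 and -1.56 in heterozygotes, and -1.02, -1.69, -1.25 and -1.46 in wild type. Its log2 fold change of homozygotes over wild type was -0.42 ± 0.14 (SE, limma adjusted p = 0.181), with wild-type replicate 2 inside the mutant range. Tbx5, a factor of the forelimb and the inflow side of the heart, had 0.45 ± 0.24 (adjusted p = 0.362), and its neighbour Tbx3 had 0.17 ± 0.23. Mga, a widely expressed T-box and Max-binding factor, had -0.05 ± 0.11.

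Heterozygous replicate 1, the array with high Tbx4, also had the highest signals of the primitive streak and tail bud factors T and Tbx6 and the lowest of the heart factors Tbx5 and Tbx20. T read 1.11 there against -1.83, -1.55 and -1.65 in the other heterozygotes, and -2.24 to -1.29 in the remaining 8 embryos. Tbx6 read -1.59 there, against -3.29 to -2.36 in the other heterozygotes, and a second Tbx6 probe read 0.66 against -4.57 to -2.36. Tbx5 read -1.39 and Tbx20 -3.91 there, the lowest of 12 for both. T and Tbx6 are themselves among the tail bud markers, so their likeness to that list is in part built in. The readings of Tbx4, Tbx5 and Tbx20 moved with the heart muscle, tail bud and posterior Hox markers of that array. The part of the markers in all these readings was not tested. Over 12 arrays T and Tbx4 had a Pearson r of 0.81, and over the 11 others -0.39. For T and Tbx6 r was 0.80 and 0.36, and for Tbx20 and Tbx4 -0.75 and -0.11. The heterozygous over wild-type log2 fold change of T was 0.54 with this array and -0.15 without it, that of Tbx6 0.76 and 0.48, and that of Tbx20 -0.62 and -0.16. For the members Tbx1 and Tbx18 it was 0.05 and -0.21 without it, against 0.08 and -0.30.

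**Figure D3:**
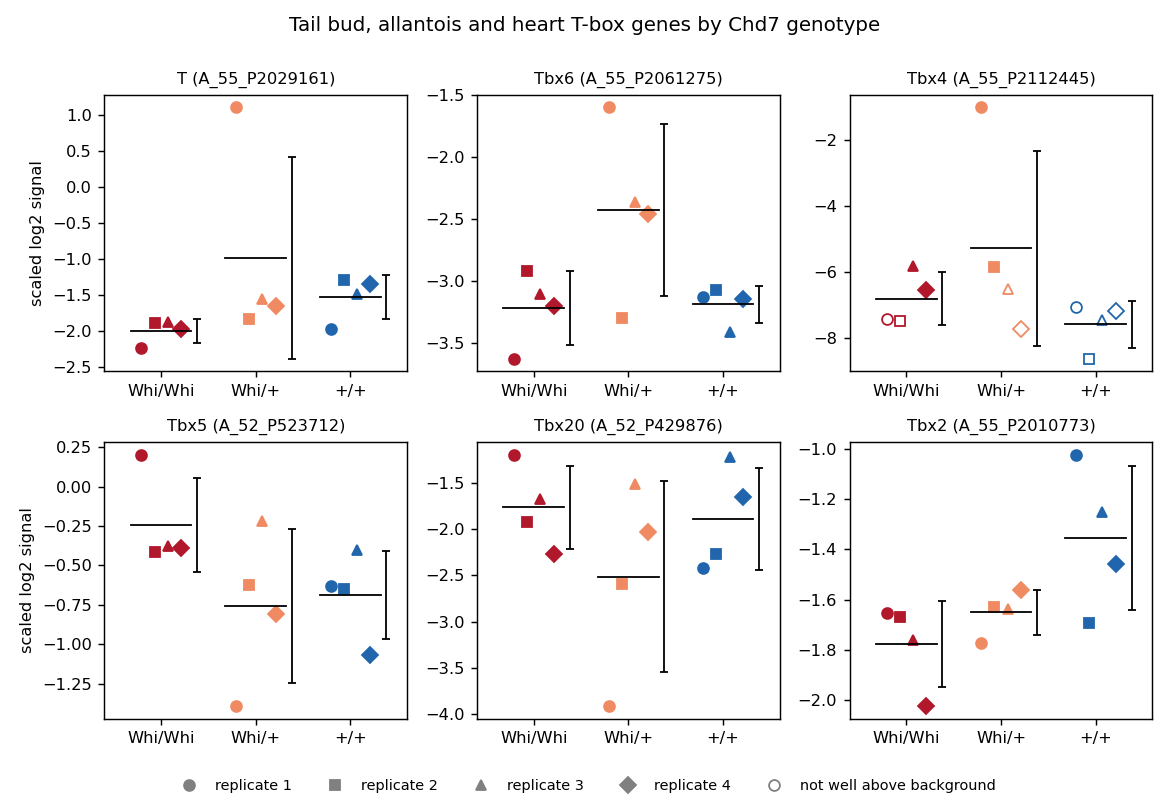
Scaled log2 signal of Tbx4 and 5 other T-box genes in 4 Chd7Whi/Whi, 4 Chd7Whi/+ and 4 +/+ embryos; each symbol is 1 array, the line is the mean, the bar is ± 1 SD, open symbols were not well above background, and axes differ between panels. Heterozygous replicate 1 (orange circle) is the highest array for T (1.11), Tbx6 (-1.59) and Tbx4 (-1.0) and the lowest for Tbx5 (-1.39) and Tbx20 (-3.91).

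Genes tied to Tbx1 in the pharynx and second heart field were measured next. This list and those below were chosen with earlier results of these data known, so their counts are a description and not independent evidence. Of 30 tested partners, regulators and targets, 3 fell and 0 rose in homozygotes against wild type, where 0.864% of all genes tested fell and 0.488% rose. The list's median log2 fold change was -0.24 against 0.02 over all genes, with 23 of 30 lower in value. Fgf10, a ligand of the second heart field and limb that Tbx1 is known to activate, read -3.63, -3.93, -4.19 and -3.91 in homozygotes, -3.27, -3.13, -3.53 and -3.01 in heterozygotes, and -2.46, -2.74, -2.68 and -2.38 in wild type. The 3 genotypes did not overlap, and Fgf10 fell by 1.35 ± 0.15 in homozygotes (SE, limma adjusted p = 0.00128). Dach1, a nuclear cofactor of eye and ear development, fell by 1.61 ± 0.18 (adjusted p = 0.00139), with -1.52 on a second probe. Isl1, a factor of second heart field progenitors and motor neurons, fell by 0.80 ± 0.15 (adjusted p = 0.0306). The calls of Fgf10 and Dach1 ended when array position was a block (log2 fold changes -1.23 and -1.22, adjusted p = 0.437 and 0.445). They also ended when title number was (-1.49 and -1.58, adjusted p = 0.0597 and 0.0721). Slide position 1 held wild types only, so in the position fit wild-type replicate 3 alone carried the comparison with wild type. Homozygous replicates 1 and 4 had title numbers that no other array shared, so that block took them out of the comparison. The call of Isl1 ended with normexp (0.0544), with either block, with no filter on dim probes (0.0635) and without any of 5 arrays in turn.

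Among the other genes of this list, Fgf8, Crkl, Chrd and Ripply3 had small values. Fgf8, the Tbx1 target of pharyngeal ectoderm and endoderm, had a log2 fold change of 0.10 in homozygotes over wild type (adjusted p = 0.844). Crkl, an adaptor encoded near Tbx1 that interacts with it, had 0.04, and Chrd, an antagonist of Bmp ligands, 0.05. Ripply3, a repressor that binds Tbx1, had -0.09. These 4 genes were named after their values were seen and do not stand for the list, in which 23 of 30 were lower in value. In heterozygotes 0 of the 30 passed, with a median of -0.10 against 0.04 over all genes, and 19 were lower than in wild type (16 without replicate 1). Homozygotes against heterozygotes also gave 0, with 27 of 30 lower. The 9 markers of pharyngeal arch and facial mesenchyme were all well above background, with a summed linear level of 3.86 to 4.36 in homozygotes, 4.88 to 6.39 in heterozygotes and 6.66 to 7.39 in wild type, and their part in the lower values of the list was not tested. The list and these markers share Hand2.

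**Figure D4:**
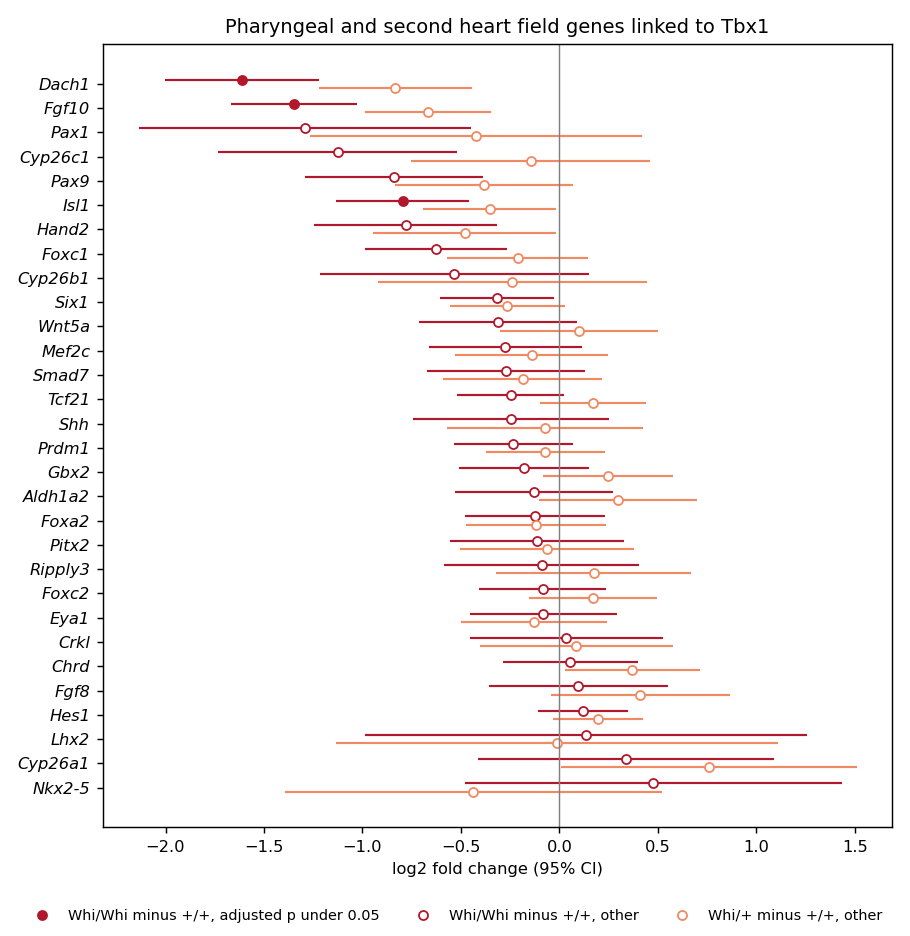
Log2 fold change (points) with 95% confidence interval (lines) over wild type of 30 genes linked to Tbx1, in Chd7Whi/Whi (red) and Chd7Whi/+ (orange) embryos, n = 4 arrays a group, ordered by the homozygous value; filled points passed the adjusted threshold of 0.05. Dach1 (-1.61), Fgf10 (-1.35) and Isl1 (-0.80) passed in homozygotes, and no gene did in heterozygotes.

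The mouse genes that match the 22q11.2 deletion region, among which Tbx1 lies between Gnb1l and Gp1bb, showed no calls. Of 28 tested 0 passed in homozygotes against wild type, with 13 higher and 15 lower and a median of -0.04. Scarf2, a scavenger receptor family member, had -0.56 ± 0.14 (SE, limma adjusted p = 0.0891). Rtn4r, the Nogo receptor, had 0.43 ± 0.13 (adjusted p = 0.142), and -0.15 with normexp.

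Genes of the sites where Tbx18, Tbx4, Tbx15 and Tbx22 act were also read. Among 21 tested somite and paraxial mesoderm genes, a setting of Tbx18, 1 fell in homozygotes against wild type, where 0.864% of all genes tested fell. This was Meox2, a homeobox factor of the somite, by 1.51 ± 0.22 (SE, limma adjusted p = 0.00738). Of these 21, 18 were lower in value, with a median of -0.29 against 0.02 over all genes. Pax9, a factor of the sclerotome and pharyngeal pouches, had -0.84 ± 0.21 (adjusted p = 0.0772), and passed with array weights (0.0357) and without heterozygous replicate 4 (0.0398). The somite count was 4 in these 2 fits and 3 with only the 2 genotypes compared. Among 9 proepicardium and sinus venosus genes, another setting of Tbx18, the median was 0.09, Isl1 fell, and Tcf21, an epicardial factor, had -0.25 ± 0.12 (adjusted p = 0.334). Of 18 limb field genes, the setting of Tbx4 and Tbx15, 4 fell: Fgf10, Isl1, the limb mesenchyme factor Prrx1 by 1.82 ± 0.30 (adjusted p = 0.0129) and Lhx9 by 0.97 ± 0.19 (adjusted p = 0.0351). Lhx9 was named after its value was seen. The limb median was -0.31, with 12 of 18 lower. The limb count was 2 with normexp, with no filter on dim probes and without homozygous replicate 2, homozygous replicate 3 or wild-type replicate 2, and it was 1 without wild-type replicate 1. Of 20 craniofacial mesenchyme genes, the setting of Tbx15 and Tbx22, 3 fell: Alx1, a factor of facial mesenchyme, by 2.13 ± 0.21 (adjusted p = 0.000602), Twist1 by 0.93 ± 0.12 (adjusted p = 0.00393) and Prrx1. The craniofacial median was -0.35, with 15 of 20 lower. The lists share genes and were chosen with earlier results of these data known, so their counts are neither independent nor a test. Meox2, Prrx1, Lhx9, Alx1 and Twist1 lost their calls when array position or title number was a block, fits with the limits given above for Fgf10. Prrx1 also lost its call without wild-type replicate 1 (adjusted p = 0.0522). Lhx9 lost its call too with normexp (0.459), with no filter on dim probes (0.0714), with trend and robust variance (0.0549), with only 2 genotypes (0.0546) and without any of 6 arrays in turn. Of 18 posterior Hox genes on the array, of the posterior trunk where the hindlimb field lies, 8 were tested. None passed, and 7 were lower in homozygotes than in wild type (median -0.58). Hoxd9 had -2.24 ± 0.81 (adjusted p = 0.21) and Hoxc9 -1.79 ± 0.76 (adjusted p = 0.265). Hoxd9 was well above background on 2 of 4 homozygous arrays and on all others. It therefore met the filter only through the groups in which it was high, and its value rests partly on readings near background. Without heterozygous replicate 1, which enters these homozygous over wild-type fits through the shared variance alone, the counts were the same.

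For each tested member the named genes with the most similar profile over the 12 arrays were looked up among 15256 candidates, T-box genes left out. Among the genes nearest to the profile of Tbx1 were Trmt1 (Pearson r 0.92) and Poldip3 (0.83), with log2 fold changes of 0.01 and 0.05 in homozygotes over wild type. Tbx15 was nearest to Hdac6 (0.92), Cbln1 (0.92) and Irf2bpl (0.90). Cbln1 averaged -0.64 in homozygotes, -1.55 in heterozygotes and -1.52 in wild type, given with no test because it was matched to a profile that is highest in homozygotes. Tbx18 was nearest to Klhl22 (0.94), itself a gene of the 22q11.2 list, Cenpi (0.93) and Phip (0.90). Each was lower in homozygotes than in wild type by mean, a direction that follows from the match to a profile lowest in homozygotes. A second Klhl22 probe had a log2 fold change of 0.15 where the matched one had -0.30. The bright Tbx22 probe was nearest to Shc4 (0.99), Rabgap1 (0.98) and Lzts3 (0.98). Another Shc4 probe had 0.65 where the matched probe had -0.15. Other probes of Hdac6 (0.37), Irf2bpl (0.66) and Trmt1 (0.04) had the sign of the matched ones, and those of Rabgap1 had 0.12 and -0.16. Each match was read on 1 probe of a gene, and the correlation of its other probes was not computed. The 12 arrays share scaling and 3 slides, and the highest of 15256 values is high by choice.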

How the data were processed

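Spots were quantified in 1 channel (Cy3) with Agilent Feature Extraction 10.7.3.1, per the submitters' processing notes. These notes list limma too, with no version. The deposited intensity of each spot was already corrected for background within its array, per the file headers, and not scaled between arrays. The deposited value table held the same intensities (largest relative difference 0). From these, log2 of the intensity that the authors deposited was computed, minus the array's 75th percentile. Control spots (1377) and spots marked non-uniform or outlying (171 to 386 an array) were left out, and spots of a probe averaged.

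Of 39429 probes, 26055 were named by accession through a RefSeq gene table (GRCm38.p6), used for names only, since its build differs from that of the array design. The brightest probe of a gene was tested if every array of 1 genotype or more had it well above background (22563 genes or identifiers). Genotype means were fitted to 12 arrays with limma 3.58.1 in R 4.3.3, with Benjamini-Hochberg adjustment over all tested. The test was checked on simulated data. Figures used matplotlib 3.10.9.

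The members and gene lists were chosen with earlier results of these data known. Named are all T-box genes, the 2 genes of each list with the smallest p between homozygotes and wild type, and the 3 genes nearest each tested member. Lhx9, Fgf8, Crkl, Chrd and Ripply3 were named after their values were seen. Alternatives were background correction (normexp, offset 50, on the median spot signal), quantile normalization, the value table, filters, probe averaging, slide, position or title number as a block, other variance models, only 2 genotypes, and each array left out. The fits of the lists without heterozygous replicate 1 were added after seeing the data. The level of Chd7 itself is not analysed here, since no probe was matched to it. The number of arrays limits the precision. A further gene near Tbx1 in profile is not reported here.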

Additional observations from a re-analysis of the deposited data

Results flagged for a closer look

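Of 111 groups of 4 arrays checked for an array far from the others, 7 had one, where chance gives about 1 in 20. Among the members, homozygous replicate 4 had a low reading of the bright Tbx22 probe (0.97, the others 1.51 to 1.60), and heterozygous replicate 4 a low reading of the dim Tbx22 probe (-8.58, the others -7.52 to -7.31), which was not above background on any of these 4 arrays. Among other T-box genes, heterozygous replicate 1 had a high reading of T (1.11, the others -1.83 to -1.55). Homozygous replicate 1 was high for Tbx5 (0.20, the others -0.41 to -0.37). Wild-type replicate 1 was high for Tbx10 (-2.49, the others -3.34 to -3.22), and wild-type replicate 3 for Eomes (-3.46, the others -6.89 to -6.43). Heterozygous replicate 2 was high for Alx1 (-1.49, the others -2.24 to -2.14).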

How the results depend on the processing

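With 4 arrays a genotype the intervals bound each change, and dim probes depend on the background correction. Over all genes the count between homozygotes and wild type was 305, and 91 with normexp, 188 with no filter on dim probes, 19 with title number as a replicate block, 20 with array position as a block, 510 with array weights, and 112 to 447 with an array left out. What the title numbers stand for is not stated. Of 11 pairs of arrays of different genotype with the same number, 4 correlated above 0.1 in their deviations (r -0.32 to 0.29, median 0.02, and 0.02 in the other pairs). These correlations cannot decide whether the numbers pair the samples. Homozygous replicates 1 and 4 had numbers that no other array shared, so the title number block took them out of the comparison. With that block no member passed. The member count was 1 with array weights (Tbx15) and 0 to 1 with an array left out. The count of other T-box genes was 1 with array position as a block (Eomes, -2.73). Slide position 1 held wild types only, so in every position fit wild-type replicate 3 alone carries the comparison with wild type. That array had the high Eomes reading (-3.46), and with it left out, without the block, Eomes had 0.14. Of the 30 genes tied to Tbx1, 0 passed with either block, 7 with array weights, 6 with only 2 genotypes, and 2 to 7 with an array left out (7 without heterozygous replicate 4). The proepicardium count of 1, Isl1, was 0 with normexp, no filter on dim probes or either block, and 0 to 1 with an array left out. With title number and with position as a block the somite and limb counts were 0, and the craniofacial count was 0 with title number.

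Signs turned in the cases below, none past the threshold, and the cause was not tested. Homozygous minus wild type with normexp was -0.15 for Tbx15, -0.063 for Tbx10, -0.060 for Tbx20, -0.26 for Tbx21 and -0.15 for Rtn4r. With title number as a block it was 0.19 for Tbx22, 0.29 for Tbx6 and -0.29 for Tbx20. With position it was 0.042 for Tbx6 and -0.21 for Tbx20, with array weights 0.00705 for Tbx6, and with the mean of a gene's probes 0.28 for Eomes. Heterozygous minus wild type was, for Tbx15, -0.17 with normexp, -0.13 with quantile normalization, -0.032 with slide blocked and -0.029 with array weights, and for Tbx22 -0.59 with the mean of its probes. Homozygous minus heterozygous was -0.20 for Tbx1 with position and 0.13 for Tbx22 with title number. With an array left out, homozygous minus wild type ranged from -0.013 to 0.20 for Tbx1, -0.47 to 0.11 for Tbx22, -0.12 to 0.11 for Tbx6, -0.053 to 0.33 for Tbx10, -0.065 to 0.35 for Tbx20, -1.01 to 0.14 for Eomes and -0.10 to 0.00180 for Mga. Heterozygous minus wild type ranged from -0.12 to 0.14 for Tbx15 and -0.23 to 0.36 for Tbx22, and homozygous minus heterozygous from -0.10 to 0.11 for Tbx1. For other T-box genes, heterozygous minus wild type turned for Tbx21 with normexp (-0.059), for Tbx3, fitted close to 0, with normexp (0.024), quantile normalization (0.0021), array weights (0.15), title number (0.047) and position (0.33), and for Tbx3, Tbx5, T and Eomes with an array left out. Homozygous minus heterozygous turned for Eomes with position (-0.30) and normexp (-0.11), for Mga with slide (-0.034) and title number (-0.017), for Tbx3 with array weights (-0.019), and for these 3 with an array left out. The direction of Tbx18 was the same in every setting.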
